A study of Hordeum vulgare with 24 samples.

Results

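Wild-type spikes of the barley cultivar Golden Promise grown in a warm regime were compared with wild-type spikes grown in a cool regime, both at Waddington stage W3.5, the stage at which stamen primordia form. The comparison used 6 of the 24 libraries of the study, 3 labelled wild type (WT) with days at 25 °C and nights at 20 °C (HT) and 3 labelled WT with days at 15 °C and nights at 10 °C (LT). They were chosen by these labels alone. All 6 came from wild-type plants of a single cultivar under a 16 h photoperiod at 50% humidity, and each library was made from RNA of 15 to 20 pooled spikes and is labelled a biological replicate. The other 18 libraries came from WT spikes at W2.5 and from spikes mutant for HvMADS1 (mads1) at both stages, in the same temperature regimes. They enter below only where the WT W3.5 differences were read in other libraries. The table lists 39734 gene identifiers, of which 17301 had enough reads in these 6 libraries to be tested.

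A barley spike is built by meristems that pass from spikelet to floret identity, and its pace depends on temperature. MADS-box transcription factors of the APETALA1, SEPALLATA, AGL6 and AGAMOUS groups give these meristems and the floral organs their identity. Florigen-like proteins of the FT family promote the transition and their relative CENTRORADIALIS delays it. The circadian clock sets the time of day at which many genes are expressed and, in barley, acts on flowering through PPD-H1. The row-type genes restrain the lateral spikelets, so that they decide whether a node of the spike sets grain on its sides.

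Gene names below are those of the published barley literature as recalled for this work. Neither the deposited tables nor the reference table pairs them with the identifiers, and they were not checked by sequence, so each name and role holds only as far as that pairing does. Lists were chosen with earlier results of these data known. They hold 13 MADS-box genes, 11 genes of flowering time and the clock, and 5 row-type genes. FT1 (HORVU7Hr1G024610) had no read in any of the 24 libraries. The identifier used for the row-type gene VRS3 had no entry in the table as received and was not analysed here. All of the remaining 27 passed the filter.

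The 6 libraries held 15913028 to 19836860 counted reads each, with scaling factors of 0.976 to 1.02. At these depths 3 counts, the limit that a count of 0 allows, stood at 0.149 to 0.193 CPM (counts scaled to the size of the library), which covers counting error only. Rank correlations over genes were 0.995 to 0.997 between replicates and 0.980 to 0.985 between regimes. The replicate spread was small, with a common dispersion of 0.00354, which is a biological coefficient of variation of 5.95%. The 100 most abundant genes took 14.5 to 14.8% of the counts at LT and 15.7 to 17.0% at HT. All 13 listed MADS-box genes of inflorescence and flower identity were read in each of the 6 libraries. In bulk RNA of whole spikes, fewer cells of a type and less RNA per cell cannot be told apart.

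Growth temperature was accompanied by many small differences in the WT spike at W3.5. By edgeR's quasi-likelihood test with Benjamini-Hochberg adjustment, 7402 of the 17301 genes were called at an adjusted p under 0.05, which is 42.8% of those tested. Of these, 3753 were higher at HT (21.7% of genes tested) and 3649 were lower (21.1%). The median change of a called gene was 1.32-fold, 1.36-fold among those that rose and 1.29-fold among those that fell, and 5286 of the called genes (71.4%) changed by less than 1.5-fold. A change of 2-fold or more was called in 850 genes (4.91%), of which 522 rose (3.02%) and 328 fell (1.90%). Only 145 were called at 4-fold or more, 79 higher and 66 lower. The 3 HT and the 3 LT libraries did not overlap in 9143 genes, 52.8% of those tested.

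Changes of 2-fold or more were called mostly in genes of low level. Genes were cut into 4 classes of like size by level. In the class with the lowest level (mean CPM 0.377 to 5.56), 26.5% were called at all and 12.9% at 2-fold or more. In the class with the highest level (55.9 to 6428 CPM), 57.8% were called at all but 1.23% at 2-fold or more. The power to call a small change rises with the count, and its part in these shares was not tested. At 2-fold or more, 317 genes rose and 239 fell in the lowest class, and 45 rose and 8 fell in the highest. Of the 70 genes at 1000 CPM or more, 33 rose and 16 fell, and 7 of them were called at 2-fold or more. No gene went from absent to clearly present: none had no read in one regime and at least 1 CPM in every library of the other.

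**Figure D1:**
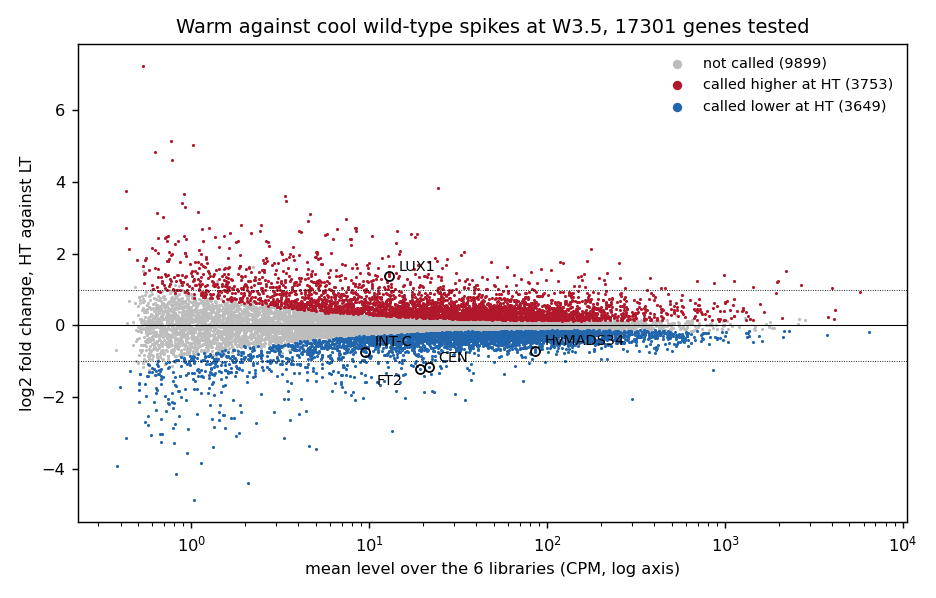
Log2 fold change of each tested gene between HT and LT (vertical axis) against its mean level over the 6 libraries in CPM on a log axis (horizontal axis), with called genes coloured by direction and 5 listed genes marked. The 850 genes called at 2-fold or more lie mostly at low levels, and the largest change among the 70 genes at 1000 CPM or more was 1.53 on the log2 scale.

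Called genes were spread over all chromosomes as far as the identifiers show it. Their first digit names the chromosome, and the called share ran from 40.7% on 2H to 45.4% on 1H, with 33.7% among the 612 genes not placed on a chromosome. On 1H more genes fell (524) than rose (434). The longest run of neighbouring tested identifiers called in the same direction held 8 genes, all higher at HT on 5H.

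Of the florigen family, FT2 and CEN fell. FT2 (HORVU3Hr1G027590), a homologue of the florigen FT, read 24.1, 28.2 and 28.9 CPM in the LT libraries and 13.6, 10.5 and 11.0 CPM in the HT libraries. All HT libraries lay well below all LT libraries. Its log2 fold change was -1.21 (SE 0.11, edgeR adjusted p = 2.4e-07), 2.31-fold lower. CEN (HORVU2Hr1G072750), the barley CENTRORADIALIS gene that delays the floral transition, read 27.3, 30.1 and 32.3 CPM at LT and 10.9, 20.7 and 8.62 CPM at HT. The groups did not overlap, but HT replicate 2 lay about midway between its group and the LT libraries. The log2 fold change of CEN was -1.17 (SE 0.20, adjusted p = 1.5e-04), and -1.63 without HT replicate 2. FT2 and CEN were thus both lower in the warm spikes, and what they do at this stage was not measured.

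Among the clock genes, LUX1 had the largest change. LUX1 (HORVU3Hr1G114970), a component of the evening complex, read 5.94, 9.51 and 6.35 CPM at LT and 15.9, 21.4 and 18.7 CPM at HT. Every HT library read above every LT library. Its log2 fold change was 1.37 (SE 0.15, edgeR adjusted p = 2.9e-06), 2.58-fold higher. ELF3 (HORVU1Hr1G094980), another component of that complex, read 59.1, 58.0 and 59.0 CPM at LT and 55.1, 59.0 and 59.8 CPM at HT. The ranges of ELF3 overlapped, and its log2 fold change of -0.02 (SE 0.06) did not pass the test (adjusted p = 0.83).

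The remaining clock genes differed by less. PRR95 (HORVU5Hr1G081620), a pseudo-response regulator, read 30.9, 49.1 and 45.9 CPM at LT and 49.9, 61.0 and 55.8 CPM at HT, with LT replicate 2 just below HT replicate 1. It rose by 0.40 (SE 0.12, adjusted p = 0.013), a call lost without HT replicate 2 (adjusted p = 0.065). Without LT replicate 1, the lowest library of PRR95, the change was 0.22. GI (HORVU3Hr1G021140), the GIGANTEA gene that links the clock to flowering, rose by 0.23 (SE 0.06, adjusted p = 0.009), from 103 ± 8.81 CPM (SD, n = 3) to 120 ± 5.17 CPM. That call was lost without LT replicate 2 (adjusted p = 0.067). PRR73 (HORVU4Hr1G057550) fell by 0.22 (SE 0.06, adjusted p = 0.0079), from 77.7 ± 1.98 to 66.5 ± 4.68 CPM.

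CCA1 (HORVU7Hr1G070870), a morning repressor of the clock, read 413, 398 and 431 CPM at LT and 381, 337 and 380 CPM at HT. Its groups did not overlap, though their nearest libraries were close. It fell by 0.18 (SE 0.06, adjusted p = 0.024), and the call was lost without LT replicate 1, LT replicate 3 or HT replicate 2 (adjusted p 0.056, 0.13 and 0.083). PPD-H1 (HORVU2Hr1G013400), the photoperiod response gene, fell by 0.16 (SE 0.06, adjusted p = 0.046), with LT libraries at 174, 191 and 169 CPM and HT libraries at 171, 151 and 154 CPM. The ranges of PPD-H1 overlapped, and its call was lost without any 1 of the libraries except HT replicate 1 (0.051 to 0.23). PRR1 (HORVU6Hr1G057630), the barley counterpart of TOC1, averaged 90.2 ± 5.43 CPM at LT and 82.8 ± 1.11 CPM at HT and did not pass the test (log2 fold change -0.12, adjusted p = 0.10). It was called without LT replicate 1 (adjusted p = 0.044).

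Of the 10 tested genes of flowering time and the clock, 3 rose, 5 fell and 2 did not pass the test, so 80.0% were called beside 42.8% of all genes. Their median log2 fold change was -0.14, beside -0.0042 over all genes tested. Only FT2, CEN and LUX1 changed by 2-fold or more. Leaving out 1 library gave 5 to 8 called members of this list, and fitting all 24 libraries gave 2. Over all genes the called share rose with level, to 57.8% in the highest class, and no list was matched by level. The labels do not state the hour at which spikes were taken in any group. For flowering and clock genes, temperature, genotype and stage thus cannot be told apart from time of day, here and below.

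**Figure D2:**
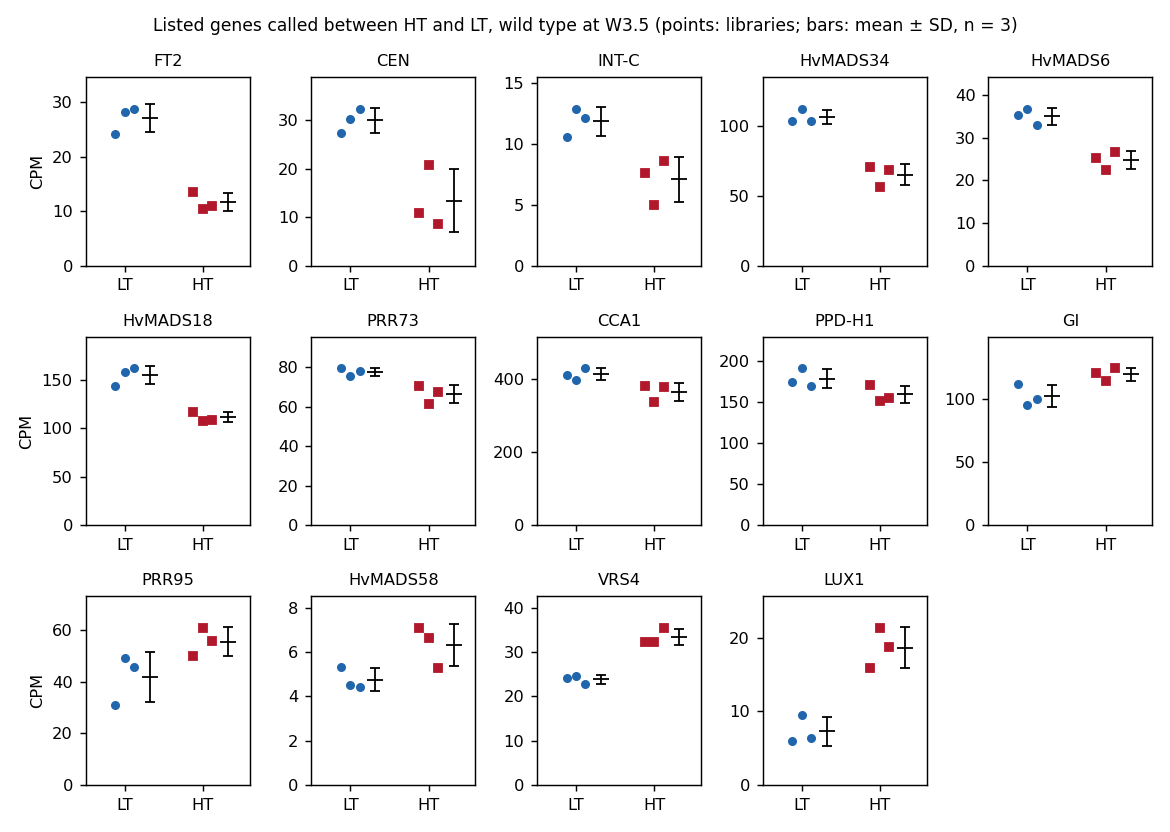
Level in CPM (vertical axes from 0) of the 14 listed genes called between LT and HT (horizontal axis), ordered by log2 fold change, with each library as a point and the mean ± SD (n = 3) beside it. The LT and HT points of FT2, LUX1 and HvMADS34 are clearly apart, while those of PPD-H1 and HvMADS58 overlap.

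Most MADS-box genes did not pass the test. Of 13, HvMADS58 rose and HvMADS34, HvMADS6 and HvMADS18 fell, which is 30.8% beside the 42.8% of all genes, and the other 9 did not pass the test. The median log2 fold change of the 13 was -0.0042, the same as that over all genes.

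In the SEPALLATA group, whose members specify floret meristems and floral organs, HvMADS34 (HORVU5Hr1G095710) was the called gene. It read 103, 113 and 104 CPM at LT and 70.6, 56.4 and 68.8 CPM at HT, with all HT libraries lower. Its log2 fold change was -0.70 (SE 0.07, edgeR adjusted p = 1.6e-06), 1.63-fold lower. In rice its homologue promotes spikelet meristem identity in the panicle. HvMADS1 (HORVU4Hr1G067680), the gene mutated elsewhere in the study, read 58.5, 65.0 and 64.7 CPM at LT and 63.1, 65.1 and 68.7 CPM at HT. Its ranges overlapped, and the change of 0.06 (SE 0.06) did not pass the test (adjusted p = 0.43).

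The other SEPALLATA genes did not pass the test either. HvMADS5 (HORVU7Hr1G025700) stood at 39.9 ± 5.53 CPM at LT and 35.2 ± 4.37 CPM at HT (adjusted p = 0.17), and was called lower without LT replicate 3 (0.046). HvMADS7 (HORVU7Hr1G054220) stood at 19.6 ± 1.99 and 18.6 ± 2.04 CPM, and HvMADS8 (HORVU5Hr1G076400) at 14.0 ± 0.342 and 13.7 ± 1.38 CPM. The nearest relative of the group, HvMADS6 (HORVU6Hr1G066140) of the AGL6 type, fell by 0.50 (SE 0.08, adjusted p = 9.8e-05). Its LT libraries read 35.4, 36.9 and 32.9 CPM and its HT libraries 25.2, 22.4 and 26.7 CPM, without overlap.

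In the APETALA1 group, which promotes the step from vegetative to reproductive meristems, HvMADS18 (HORVU0Hr1G003020) fell. It read 144, 158 and 162 CPM at LT and 117, 108 and 109 CPM at HT, again without overlap (log2 fold change -0.47, SE 0.06, adjusted p = 1.0e-05). HvMADS14 (HORVU5Hr1G095630), the vernalization gene VRN1, read 333, 326 and 330 CPM at LT and 350, 376 and 336 CPM at HT. Although every HT library of HvMADS14 was higher, the change of 0.10 (SE 0.06) did not pass the test (adjusted p = 0.15). HvMADS15 (HORVU2Hr1G063800) averaged 62.8 ± 1.77 CPM at LT and 62.9 ± 4.76 CPM at HT.

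Among the floral organ genes, HvMADS58 (HORVU1Hr1G029220), of the AGAMOUS group that specifies stamens and carpels, read 5.34, 4.52 and 4.42 CPM at LT and 7.10, 6.63 and 5.26 CPM at HT. HT replicate 3 lay within the LT range. It rose by 0.41 (SE 0.16, adjusted p = 0.047), and the call was lost without LT replicate 2 or 3 or HT replicate 1 or 2 (adjusted p 0.12, 0.14, 0.16 and 0.12). The other AGAMOUS gene, HvMADS3 (HORVU3Hr1G026650), averaged 7.99 ± 1.03 CPM at LT and 9.56 ± 0.456 CPM at HT without overlap of the libraries but also without passing the test (adjusted p = 0.10). HvMADS16 (HORVU7Hr1G091210), which in rice specifies lodicules and stamens, averaged 25.4 ± 1.21 and 26.9 ± 3.31 CPM. HvMADS32 (HORVU3Hr1G068900), of a grass-specific type, averaged 161 ± 5.28 and 160 ± 8.44 CPM.

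The level per transcript length ordered the MADS-box genes alike in both regimes at the top. In FPKM, the deposited length-scaled values, HvMADS14 was the highest at 395 ± 6.10 at LT and 413 ± 21.3 at HT, followed by HvMADS32 at 187 ± 6.84 and 182 ± 9.21. HvMADS18 came next at LT with 113 ± 6.78 FPKM, then HvMADS34 with 90.0 ± 3.94 and HvMADS15 with 82.7 ± 2.52. At HT HvMADS15 (80.8 ± 5.90 FPKM) and HvMADS18 (79.2 ± 4.66) did not differ beyond their spread, and HvMADS34 stood at 53.9 ± 6.95, below HvMADS1 at 64.9 ± 2.47. HvMADS58 was the lowest of the 13 at LT, with 5.60 ± 0.607 FPKM, and at HT, with 7.27 ± 1.14.

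Of the 4 tested row-type genes, VRS4 rose, INT-C fell and VRS1 and VRS2 did not pass the test, 50.0% beside 42.8% of all genes. The median of the 4 log2 fold changes was -0.046. VRS4 (HORVU3Hr1G016690), the barley counterpart of the maize spikelet meristem gene RAMOSA2, read 24.2, 24.6 and 22.8 CPM at LT and 32.4, 32.4 and 35.5 CPM at HT. No library overlapped, and it rose by 0.49 (SE 0.07, edgeR adjusted p = 5.8e-05). INT-C (HORVU4Hr1G007040), a TCP transcription factor that restrains lateral spikelets, read 10.6, 12.9 and 12.2 CPM at LT and 7.65, 5.02 and 8.62 CPM at HT. All 3 HT libraries lay below the LT libraries, and it fell by 0.73 (SE 0.16, adjusted p = 0.0012).

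VRS1 (HORVU2Hr1G092290), the homeodomain gene behind the difference between 2-rowed and 6-rowed barley, read 8.50, 9.87 and 11.3 CPM at LT and 8.39, 7.02 and 9.43 CPM at HT. These ranges overlapped (log2 fold change -0.25, SE 0.14, adjusted p = 0.15). VRS2 (HORVU5Hr1G081450), of the SHORT INTERNODES family, read 40.3, 44.9 and 49.1 CPM at LT and 49.5, 50.7 and 50.0 CPM at HT. The HT libraries of VRS2 were all higher, by 0.16 (SE 0.07), which did not pass the test (adjusted p = 0.083) but did without LT replicate 3 (0.029).

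Among called genes whose mean reached 5 CPM and whose groups were apart, the largest changes lay outside the lists, in genes that no table used here describes. HORVU5Hr1G005340 read 3.60, 3.27 and 2.73 CPM at LT and 42.0, 47.7 and 46.1 CPM at HT. Its log2 fold change was 3.83 (SE 0.11, edgeR adjusted p = 1.1e-12), a 14.2-fold rise that was alike in all 3 HT libraries. HORVU5Hr1G035350 rose by 2.95 (SE 0.17, adjusted p = 2.0e-09), with 1.25, 1.84 and 1.93 CPM at LT and 13.3, 11.3 and 14.5 CPM at HT.

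Of those that fell, HORVU6Hr1G001160 read 8.23, 8.92 and 10.5 CPM at LT and 1.30, 1.22 and 0.0578 CPM at HT. The last value is a single read, so the HT libraries differed among themselves by more than the LT libraries did. Its log2 fold change was -3.45 (SE 0.34, adjusted p = 7.0e-07), and -2.86 without HT replicate 3. HORVU7Hr1G020780 fell evenly, from 24.1, 24.3 and 22.8 CPM to 3.08, 3.67 and 2.60 CPM (log2 fold change -2.93, SE 0.12, adjusted p = 8.4e-11). For all of these, reads of near-identical copies or of overlapping and antisense genes could not be told apart.

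The WT differences were next read in mads1 spikes of the same stage and temperatures, which share no library with them. There, 7268 of 17331 genes tested were called (41.9%), 20.7% higher and 21.2% lower, and 4666 without mads1 LT replicate 2. Of the WT genes that rose and were tested there, 93.1% of 3733 were also higher in mads1 and 64.2% were called higher. Of the WT genes that fell, 92.3% of 3593 were also lower and 64.4% were called lower. A call in the opposite direction was seen for 0.911% and 1.03%. Over all 16936 genes tested in both, 78.1% had the same sign and 38.7% were called in the same direction as the sign in WT. For genes called at 2-fold or more, the share with the same sign was 98.0% of 505 that rose and 94.3% of 281 that fell.

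The changes were larger in mads1. The median log2 fold change of the WT genes that rose was 0.60 in mads1 against 0.44 in WT, and that of the genes that fell -0.56 against -0.36. The difference between the genotypes was tested as an interaction over the 12 W3.5 libraries, and 2122 of 17929 genes were called (11.8%), 6.56% with the higher value in WT and 5.27% with the lower. Among 7326 WT calls in that test, 1282 (17.5%) were called: 1066 changed the same way and more in mads1, 37 changed less there, and 179 changed the opposite way. Over all 16936 genes, 2082 (12.3%) were called: 1572 changed the same way and more in mads1, 37 less there, and 473 the opposite way. Leaving out each of the 12 libraries in turn gave 1113 to 2868 calls. The count was 1158, 1400 and 1203 without WT LT replicates 1, 2 and 3, 1234 without mads1 LT replicate 2 and 1113 without WT HT replicate 1.

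**Figure D3:**
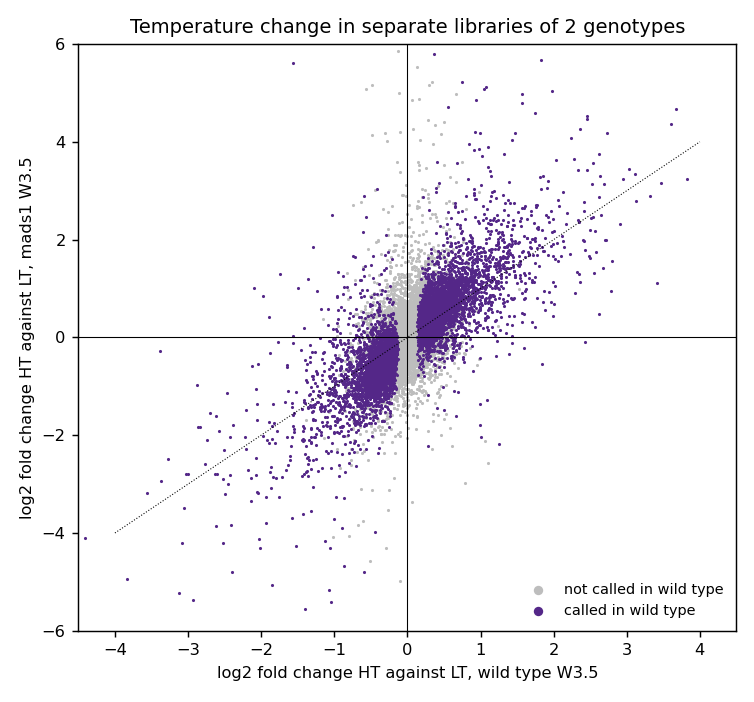
Log2 fold change between HT and LT at W3.5 in mads1 (vertical axis) against that in WT (horizontal axis) for 16925 genes, with 11 more outside the axes, genes called in WT coloured and equal change as a dotted line. Of the genes called in WT, 93.1% of those that rose and 92.3% of those that fell have the same sign in mads1, with medians farther from 0 there.

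Members differed in how far mads1 followed WT. LUX1 rose by 2.80 in mads1 (edgeR adjusted p = 1.8e-04), FT2 had a log2 fold change of -1.89 there (1.4e-04), and CEN had one of -2.67 (2.9e-04), each larger than in WT by the interaction (adjusted p 0.0084, 0.035 and 0.038). The interaction call of LUX1 held without each of the 12 libraries. That of FT2 was lost without any 1 WT LT library, mads1 LT replicate 2 or WT HT replicate 1 (adjusted p 0.057 to 0.098), and that of CEN held only without mads1 LT replicate 1 or 3, WT HT replicate 3 or mads1 HT replicate 1. HvMADS34 (-0.96), HvMADS18 (-0.48), VRS4 (0.74) and INT-C (-0.88) were called in the same direction as in WT, and their interactions did not pass the test. HvMADS58 was called in opposite directions, higher at HT in WT and lower in mads1 (-1.45, adjusted p = 0.0042, interaction 0.0031). Its WT call held in only 2 of 6 fits without 1 library, so a rise of HvMADS58 in WT is uncertain. Of the 13 MADS-box genes, 1 rose and 10 fell in mads1, 84.6% beside the 41.9% of all genes called there. The interaction was called in 7 of them, beside 11.8% of all genes, in each case with the higher value in WT (6.56% of all genes). Only the calls of HvMADS6, HvMADS3 and HvMADS58 held without each of the 12 libraries. HvMADS1 itself had a log2 fold change of -3.37 (SE 1.16) in mads1 (adjusted p = 0.049), where it is the mutated gene. Its interaction value ran from 2.86 to 8.02 without each library, so the size of the change is uncertain.

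At the earlier stage W2.5, WT spikes gave fewer calls. With all 6 W2.5 libraries, edgeR called 0 of 17003 genes, while 1406 had an unadjusted p under 0.05 and DESeq2 called 448. HT replicate 3 of W2.5 stands apart from the other libraries of the study, with a scaling factor of 0.575 against 0.959 to 1.08. In a fit without it, 1619 of 17419 genes were called (9.29%). Read in those 5 libraries, 86.8% of 7335 WT W3.5 calls had the same sign and 15.6% were called in that direction, beside 73.2% and 8.06% of all 17036 genes tested in both. With all 6 libraries, 68.6% of 7279 WT W3.5 calls had the same sign, beside 60.9% of 16806 genes.

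Several members differed between the stages. The W2.5 values are those of the 5 libraries, and with all 6 none of these genes passed the test. HvMADS1 fell by 2.30 at W2.5 (adjusted p = 7.1e-04), while it did not pass the test at W3.5. HvMADS6 had a log2 fold change of -6.56 (SE 0.69) at W2.5 (0.0017) and of -0.50 at W3.5. With all 6 W2.5 libraries its value was -5.44. Its highest count in any of the 24 libraries was 664, so such a fall leaves few reads in the warm W2.5 libraries. The size of that change is therefore uncertain. LUX1 had opposite signs, -3.19 at W2.5 (0.0023) and 1.37 at W3.5, as did CCA1 with 1.55 (2.6e-04) and -0.18. The hour of sampling is not stated, so for LUX1 and CCA1 stage and time of day cannot be told apart. FT2, HvMADS34, HvMADS18 and INT-C were called lower at HT at both stages, with -2.31, -1.17, -0.88 and -1.45 at W2.5. With all 6 W2.5 libraries these values were -2.53, -0.20, -0.31 and -0.29, so that those of HvMADS34, HvMADS18 and INT-C rest on leaving out HT replicate 3. The difference between the stages was tested over all 12 WT libraries, and 24 of 17738 genes were called (0.135%), among them HvMADS1, HvMADS6, LUX1, CCA1 and VRS1. The call of HvMADS1 held without each of the 12 libraries, while those of HvMADS6 and LUX1 held in 2 of these fits, that of CCA1 in 5 and that of VRS1 in 1. Leaving out any 1 of the other 11 libraries gave 5 to 12 calls. Without HT replicate 3 of W2.5 there were 622 calls among 18016 genes (3.45%). On simulated data the fit over all 12 WT libraries called 1% of 2-fold and 29% of 4-fold changes. Genes it did not call may thus still differ between the stages.

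**Figure D4:**
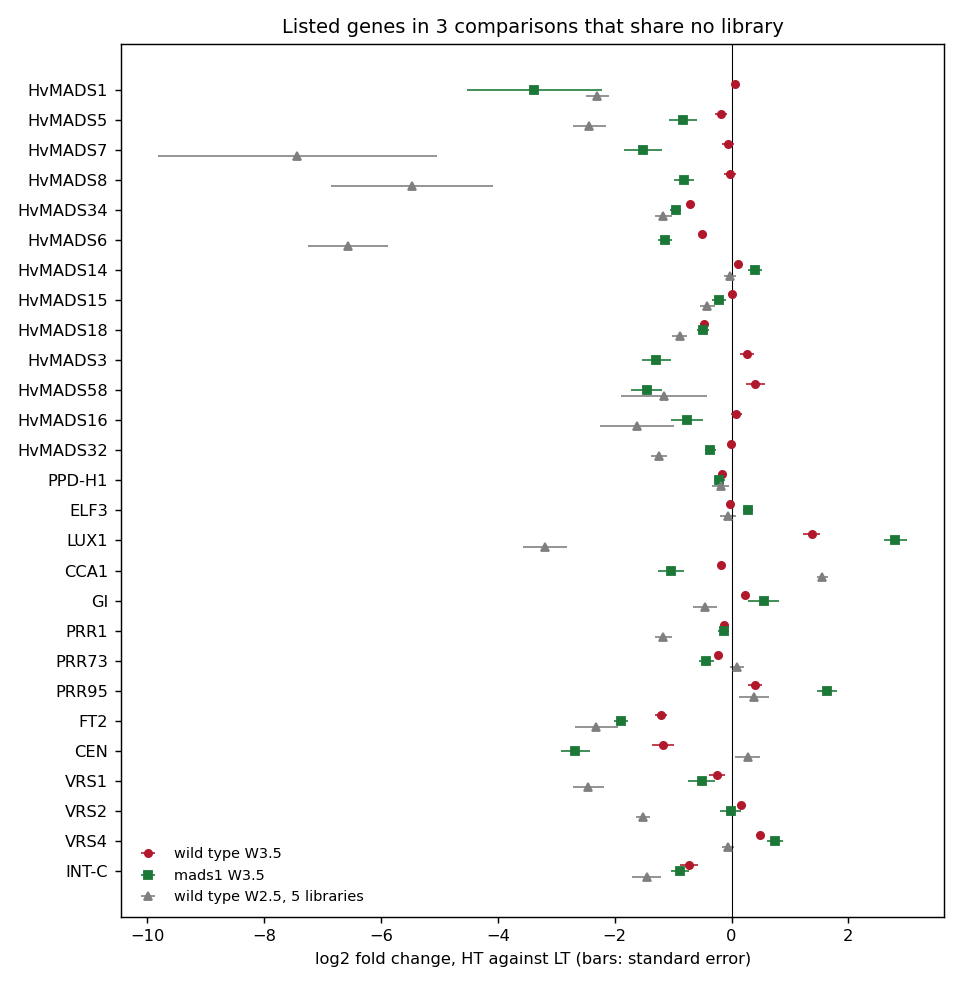
Log2 fold change between HT and LT of each tested listed gene, with standard errors as bars. Settings are WT at W3.5, mads1 at W3.5 and WT at W2.5 without HT replicate 3, where HvMADS3 was not tested. FT2, HvMADS34, HvMADS18 and INT-C lie below 0 in all 3 settings, whereas LUX1 lies above 0 at W3.5 in both genotypes and below 0 at W2.5.

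Genes that change as the spike develops were finally read in the WT W3.5 comparison. They were defined in mads1 libraries, as genes called between W2.5 and W3.5 in the same temperature. None of the 6 WT libraries was thus used to choose them. The mads1 W3.5 libraries that chose them also enter the mads1 temperature comparison, whose signs matched WT in 78.1% of 16936 genes. Stage and temperature therefore cannot be told apart in these sets. In cool mads1 746 genes were called (4.35%), 2.7% higher and 1.64% lower at W3.5, and in warm mads1 3513 (20.4%), 10.4% and 9.99%. These counts moved with single libraries. Leaving out 1 library gave 344 to 563 genes in cool mads1, except 2395 without mads1 LT W3.5 replicate 1. In warm mads1 it gave 1095 to 1555 without any 1 W2.5 library or W3.5 replicate 2, and 4395 and 4580 without W3.5 replicates 1 and 3. For genes that rose with stage in warm mads1, 59.5% of 1712 were called higher at HT in WT and 8.18% lower, with a median log2 fold change of 0.34. For genes that fell with stage there, 5.70% of 1684 were called higher and 59.3% lower, with a median of -0.26. The background for both was 22.3% higher and 21.0% lower among 16790 genes.

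Genes defined in cool mads1 spikes gave another picture. Of 450 that rose with stage, 17.6% were called higher at HT in WT and 41.8% lower, with a median of -0.24. Of 276 that fell with stage, 30.1% were called higher and 22.8% lower, with a median of 0.058, beside 21.6% and 21.5% of 16824 genes. When each mads1 library was left out in turn, 56.2 to 65.4% of the warm genes that rose with stage were called higher in WT, and 54.3 to 69.7% of those that fell were called lower. Of the cool genes that rose, 32.3 to 46.2% were called lower. Without mads1 LT W3.5 replicate 1 these shares were 21.0% higher and 32.3% lower, with a median of -0.081. For the cool genes that fell the direction turned without that library, to 19.5% higher and 24.8% lower with a median of -0.042. Whether the warm and cool WT spikes were at the same point of W3.5 was not tested.

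**Figure D5:**
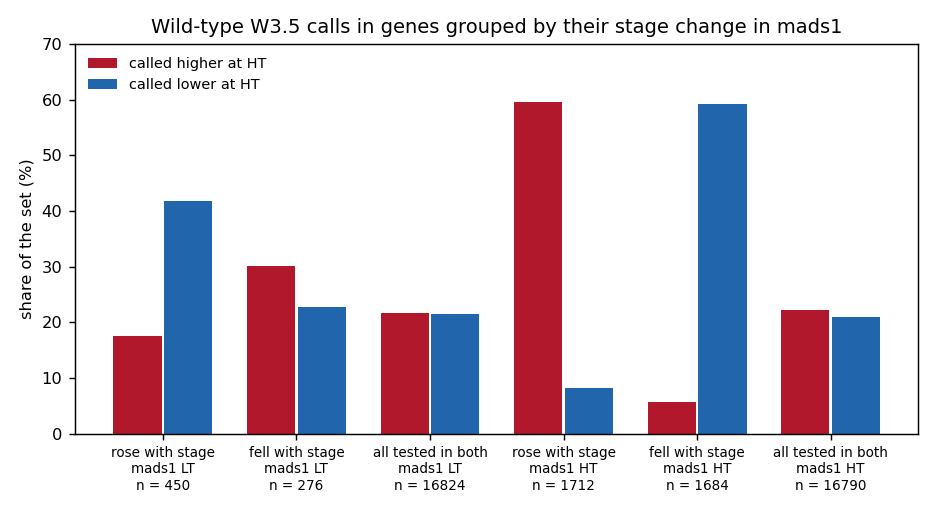
Percent of genes called higher and lower at HT in WT at W3.5, for genes that rose or fell between W2.5 and W3.5 in cool and in warm mads1 spikes, beside all genes tested. Bars of the genes that rose in warm mads1 lean to higher (59.5%) and bars of those that rose in cool mads1 to lower (41.8%). Stage and temperature cannot be told apart in these sets.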

How the data were processed

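Counted reads were analysed for 6 WT libraries at W3.5, with 18 further libraries used as stated. The deposited table holds whole-number counts per gene identifier, not normalized, made with HISAT2 and HTSeq per the submitters' processing notes. Versions, genome build, annotation and strand setting were not given in the sources used here. FPKM values, as deposited, equal those counts divided by gene length and library total, to a relative 9.92e-08, so they are no independent measurement. Libraries were TruSeq RNA preparations per the labels' protocols.

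Counts were fitted in R 4.3.3 with edgeR 4.0.16: filterByExpr, TMM scaling, and a quasi-likelihood F test with Benjamini-Hochberg adjustment over all genes tested, called at an adjusted p under 0.05. The spread came from the libraries compared only. Each standard error is the absolute log2 fold change divided by the root of its F. Levels, in CPM with TMM scaling, are given as mean ± SD. Interactions were fitted on 12 libraries with 4 group means. Replicates are labelled biological, and p-values measure the spread between these pools of spikes. The script was tested on simulated data. No pair of libraries agreed within sampling noise (chi-square per gene 2.64 to 6.47 within the 6). Of the identifiers, 12351 had no read in any library.

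Members and lists were chosen with earlier results of these data known. All listed genes are named. Beyond them, the rule named the 2 highest and 2 lowest log2 fold changes among called genes whose mean reached 5 CPM and whose groups were apart. HvMADS2, HvMADS4, HvMADS13 and HvMADS21 were not analysed here. Alternatives were other scaling factors, no filter, a filter at 5 CPM, DESeq2 1.42.0, robust empirical Bayes, limma 3.58.1 on log2(FPKM + 1) or log2(FPKM + 0.1), all 24 or 23 libraries, a replicate block, and leaving out each library.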

Additional observations from a re-analysis of the deposited data

Results flagged for a closer look

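The temperature change at W3.5 differed between WT and mads1 in 2122 genes by the edgeR interaction over 12 libraries. Values here are log2 differences, the change in WT minus that in mads1. Among the MADS-box genes it was 3.44 for HvMADS1 (adjusted p = 0.043), 1.41 for HvMADS7 (0.022), 0.75 for HvMADS8 (0.027), 0.60 for HvMADS6 (0.013), 1.51 for HvMADS3 (0.0053), 1.83 for HvMADS58 (0.0031) and 0.33 for HvMADS32 (0.047). Leaving out each library in turn kept the calls of HvMADS6, HvMADS3 and HvMADS58 in 12 of 12 fits, and those of HvMADS7, HvMADS8, HvMADS1 and HvMADS32 in 8, 5, 3 and 2. The value of HvMADS1 was 8.02 without mads1_HT_W3.5 replicate 3.

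In the flowering and clock list the difference was -0.33 for ELF3 (adjusted p = 0.040), -1.46 for LUX1 (0.0084), 0.83 for CCA1 (0.047), -1.25 for PRR95 (0.0098), 0.65 for FT2 (0.035) and 1.48 for CEN (0.038). The calls of LUX1 and PRR95 held in 12 of 12 such fits, and those of FT2, CEN, CCA1 and ELF3 in 7, 4, 3 and 2. With no hour of sampling stated, genotype and time of day cannot be told apart for this list. HORVU6Hr1G001160 differed by 4.15 (0.043, held in 2 of 12 fits, up to 6.94) and HORVU7Hr1G020780 by 2.42 (0.013, held in 12 of 12). HORVU6Hr1G001160 had a log2 fold change of -7.60 in mads1, with a highest count of 213 in any of the 24 libraries. The warm mads1 libraries thus held almost no reads of it, and the size of its difference is uncertain.

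Between the stages, the temperature change in WT differed in 24 genes with all 12 libraries. Given as the change at W3.5 minus that at W2.5, the log2 difference was 2.29 for HvMADS1 (adjusted p = 0.0072), 4.98 for HvMADS6 (0.025), 4.94 for LUX1 (0.032), -1.65 for CCA1 (0.0094) and 2.38 for VRS1 (0.036). WT_HT_W2.5 replicate 3, the library that stands apart, enters each of these. For LUX1 and CCA1, stage and time of day cannot be told apart. The value of HvMADS6 rests on few reads in the warm W2.5 libraries, so its size is uncertain.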

How the results depend on the processing

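The 7402 calls were 7134 to 7843 under other scaling, no filter, robust empirical Bayes, limma and the block, 6546 under a filter at 5 CPM, 6345 by DESeq2, and 6023 to 7234 when each library was left out (3092 to 3708 higher, 2931 to 3526 lower). The count moved most when more libraries were fitted together, which also changed the scaling and the genes tested. With all 24 libraries, 1130 were called (700 higher, 430 lower; 529 at 2-fold or more), with 0 MADS-box, 2 flowering or clock and 0 row-type genes. Without WT_HT_W2.5 replicate 3 (23 libraries), there were 4835 (2555 higher, 2280 lower), with 2 MADS-box and 3 flowering or clock genes. Of the 7402, 14.7% and 63.6% were called in these fits, and 0 with the opposite sign in any alternative. Calls at 2-fold or more numbered 361 under a filter at 5 CPM, which tests fewer genes, 331 by limma on log2(FPKM + 1), and 859 to 972 without each library. With library totals alone 43.8% of the called genes were higher, against 50.7%. FT2, LUX1 and the 4 unlisted genes kept their call throughout. CEN lost it with robust empirical Bayes (adjusted p = 0.057). With all 24 libraries every called listed gene except FT2 and LUX1 lost it. Among these were CEN (0.27), HvMADS34 (0.30), HvMADS18 (0.31), INT-C (0.37), HvMADS6 (0.63) and VRS4 (0.052). With 23 libraries HvMADS6 (0.15), PRR73 (0.15), PRR95 (0.21), PPD-H1 (0.31), HvMADS58 (0.33), CCA1 (0.43) and GI (0.49) lost theirs. HvMADS58 and PRR95 lost theirs with DESeq2 (0.097 and 0.14) and both limma fits (0.052 to 0.053 and 0.052), PRR95 also with robust empirical Bayes (0.16) and HvMADS58 with library totals (0.070). PRR1 was called with library totals (0.040) and by limma on log2(FPKM + 1) (0.049).

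Genes near 0 changed sign. HvMADS15 read -0.0012 with upper quartile scaling, -0.035 with library totals, -0.00059 with the block, -0.035 by both limma fits and -0.051 to 0.064 without each library. Without each library HvMADS7 ran from -0.14 to 0.014, HvMADS8 from -0.10 to 0.036, HvMADS16 from -0.015 to 0.15, HvMADS32 from -0.044 to 0.026 and ELF3 from -0.038 to 0.021. Called members without each library numbered 3 to 4 of the MADS-box list, 5 to 8 of the flowering and clock list and 2 to 3 of the row-type list, and over the other settings 0 to 4, 2 to 9 and 0 to 2. Leave-one-out counts were 1113 to 2868 for the genotype interaction, 5 to 622 for the stage interaction, 4666 to 7152 for mads1 at W3.5 and 0 to 1619 for WT at W2.5. DESeq2 called 257 genes in the stage interaction and 448 in WT at W2.5, the latter added after seeing the data.

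By their deviations from the group means, replicate numbers did not pair the WT samples at W3.5, where same-numbered libraries correlated at -0.0060, 0.0047 and -0.042. In mads1 at W3.5 they correlated at 0.41, 0.017 and 0.36, so replicates 1 and 3 shared part of their deviations. In WT at W2.5 the values were 0.31, -0.37 and -0.23. The mads1 and interaction results above come from fits without a replicate block. With the replicate block 7328 genes were called in WT at W3.5, 9396 in mads1, 2314 and 7 in the genotype and stage interactions, and 0 in WT at W2.5. In the stage interaction the block left HvMADS6 (adjusted p = 0.13), LUX1 (0.090), CCA1 (0.064) and VRS1 (0.16) uncalled, and in the genotype interaction ELF3 (0.054). The cause of these shifts was not tested. Depth limits changes of low-level genes.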
